A study of Homo sapiens with 43 samples.

Results

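The genes described here are the 7 ELOVL fatty acid elongases and the 3 FADS fatty acid desaturases, found by symbol in the deposited expression tables. All 10 were present among the 18085 genes of the H2087 tables and the 25369 genes of the HCC1954 tables. They were selected on a measured value, the near loss of ELOVL2 in the H2087 derivatives in mitogen-low medium, so every value of that contrast is given as a description with no test. RNA sequencing was done on total RNA of 2 established human lines, H2087 from a lung cancer and HCC1954 from a breast cancer, each as parental cells and as latency-competent cells (LCC). The labels describe each LCC line as a derivative isolated from an organ that was BLI-negative, a mouse organ where the labels say more. Cells grew below confluence for 48 h, with mitogens at a low level (mitogen-low medium, MLM) or at a high one (mitogen-rich medium, MRM). No genetic change or drug is named for any group. H2087 has 6 LCC libraries per medium, 1 from each of the derivatives LCC1 to LCC6, and 2 parental libraries. HCC1954 has 4 LCC libraries per medium, 2 each from the derivatives LCC1 and LCC2, and 3 parental libraries. Each derivative is thus a single line, and a group of 4 HCC1954 LCC libraries holds 2 of them. Nothing in the labels says that libraries of 1 group came from separate cultures, so a p-value measures only the spread between these libraries.

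The ELOVL enzymes catalyse the condensation step by which a fatty acid bound to coenzyme A is lengthened in the endoplasmic reticulum, and the FADS enzymes place double bonds near the carboxyl end of the chain. FADS2, ELOVL5, FADS1 and ELOVL2 work in turn to convert the essential linoleic and alpha-linolenic acids into arachidonic, eicosapentaenoic and docosahexaenoic acid, whereas ELOVL1, ELOVL3, ELOVL4, ELOVL6 and ELOVL7 mainly act on saturated and monounsaturated chains, ELOVL4 also on very long polyunsaturated ones. Several of these genes are known targets of the sterol-regulated transcription factor SREBP-1, and FADS1, FADS2 and FADS3 lie side by side on chromosome 11.

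Values are deposited normalized counts, that is, reads divided by a size factor for each library, with 1 normalization for both media of a line. Levels are not compared between genes, because gene length was not used. Depth moved with the medium: H2087 libraries held 44.6 to 55.7 M reads in MLM and 12.1 to 20.8 M in MRM, whereas HCC1954 libraries held 24.9 to 28.1 M in MLM and 28.8 to 44.7 M in MRM. The part of depth in the differences between media was not tested. All 7 epithelial markers had a mean of at least 10 in each of the 8 groups, NKX2-1 ran from 2319 to 6892 in H2087, and ERBB2 from 119992 to 307479 in HCC1954, while the lung marker SFTPC lay at or near 0 in H2087. Summed blood markers stayed between 17.8 and 113.9 in all libraries of both lines. Some other lists were higher. Summed endothelial markers ran from 723.7 to 1446.7 in HCC1954 and 63.3 to 314.1 in H2087. Summed fibroblast markers reached 1117.4 in HCC1954 and 1086.5 in H2087. Summed hepatocyte markers ran from 3638.2 to 11290.8 in H2087, mostly SERPINA1, and from 26.1 to 79.7 in HCC1954. NKX2-1 was also present in HCC1954, at 239.4 to 750.5. What these levels say of cell identity was not tested. In HCC1954 LCC1 library 2 in MRM stood apart from its partner, since their counts gave a chi-square over genes of 108 per degree of freedom, against 2.03 to 3.45 for the other pairs of 1 derivative. HCC1954 parental library 3 in MLM also stood apart (58.4 and 58.7, against 7.10 between libraries 1 and 2), and H2087 LCC5 and LCC6 were close to each other in MRM (6.68) but not in MLM (53.6). No 2 libraries held identical values. In bulk RNA, fewer cells of a type and less RNA per cell cannot be told apart.

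The upstream sequence of the 4 members on which the results turn is shown to set their promoter types side by side: ELOVL2, which was near lost, FADS1 and FADS3, which were higher in HCC1954 LCC cells, and ELOVL5, which was lower there. Each run is the 250 bases before the annotated start, 5′ to 3′ on the gene's own strand, from RefSeq on GRCh38.p14, in which 10 of 10 members were matched by symbol. The submitters' notes name hg19 and GRCh37, so these coordinates are not those of the deposited files. Capitals mark the GC box GGGCGG and the CCAAT box CCAAT, each read on both strands.
ELOVL2, chr6:11044306-11044555, minus strand: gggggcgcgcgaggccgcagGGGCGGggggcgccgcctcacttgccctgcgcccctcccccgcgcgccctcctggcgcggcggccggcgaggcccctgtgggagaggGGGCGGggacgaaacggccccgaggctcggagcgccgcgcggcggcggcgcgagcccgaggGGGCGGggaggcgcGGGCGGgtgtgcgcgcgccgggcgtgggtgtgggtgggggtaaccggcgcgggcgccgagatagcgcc
FADS1, chr11:61817004-61817253, minus strand: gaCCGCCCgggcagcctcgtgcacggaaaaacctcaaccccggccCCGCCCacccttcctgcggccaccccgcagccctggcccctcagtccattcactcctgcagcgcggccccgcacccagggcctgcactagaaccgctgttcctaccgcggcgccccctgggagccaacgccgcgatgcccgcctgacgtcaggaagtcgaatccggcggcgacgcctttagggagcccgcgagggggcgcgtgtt
FADS3, chr11:61891546-61891795, minus strand: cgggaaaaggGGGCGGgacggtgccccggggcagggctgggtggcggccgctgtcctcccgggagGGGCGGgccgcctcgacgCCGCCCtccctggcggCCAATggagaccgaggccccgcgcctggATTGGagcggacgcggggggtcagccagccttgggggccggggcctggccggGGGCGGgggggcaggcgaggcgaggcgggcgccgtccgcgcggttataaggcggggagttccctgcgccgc
ELOVL5, chr6:53348951-53349200, minus strand: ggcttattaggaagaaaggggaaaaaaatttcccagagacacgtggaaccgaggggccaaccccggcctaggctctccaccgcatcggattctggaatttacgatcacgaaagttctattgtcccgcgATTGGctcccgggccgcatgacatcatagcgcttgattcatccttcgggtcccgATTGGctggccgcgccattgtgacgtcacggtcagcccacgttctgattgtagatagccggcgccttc

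The ELOVL2 run is 84.8% G and C, against 80.4% for FADS3, 72.4% for FADS1, 56.0% for ELOVL5 and a median of 58.0% over 27305 promoters. It holds 4 GC boxes and no CCAAT box, FADS3 holds 4 and 2, FADS1 holds 2 GC boxes, and ELOVL5 holds 2 CCAAT boxes and no GC box. Among all 10 members, 8 hold a GC box, a motif found in 42.3% of all promoters of the same length, and 5 hold a CCAAT box, found in 33%. The E-box CACGTG was found in ELOVL4 and ELOVL5, 2 members, and in 6.49% of all promoters. The sterol regulatory element, searched as TCACNCCAC, was found in 0.875% of all promoters and in 0 members within this window. In ELOVL1 a CCAAT box overlapped a GC box, and the 4 printed runs held no such overlap.

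ELOVL2, the elongase that acts on long polyunsaturated chains and is needed for docosahexaenoic acid, was found in quantity in 1 of the 8 groups alone, the parental H2087 cells in MLM. Its normalized counts there were 682 and 698. The 6 H2087 LCC libraries in MLM held 13.3, 4.61, 7.69, 1.19, 0 and 3.08 for LCC1 to LCC6. In MRM the parental libraries held 0 and 0, and the LCC libraries 3.41, 4.40, 6.19, 1.95, 0 and 0. The highest H2087 library outside the parental MLM pair was therefore LCC1 in MLM, at 13.3. Every LCC library lay below both parental libraries in MLM, and in MRM the LCC libraries were at or above the parental ones.

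In reads, the 2 parental MLM libraries held 2678 of ELOVL2, the 6 LCC MLM libraries 50, the parental MRM libraries 0 and the LCC MRM libraries 10. The ratio of pooled reads per normalized unit, parental over LCC in MLM, was 141 (95% interval 107 to 191). It describes the values that chose the members. The pooled interval treats the 6 derivatives as 1 and does not measure the spread between them. Against single derivatives it was 52.0 for LCC1, 149.8 for LCC2, 89.8 for LCC3, 224 for LCC6 and 580 for LCC4, the last resting on few reads with an interval of 160 to 4793. LCC5 held 0 reads and has no ratio. Parental MLM cells were at least 243-fold higher than parental MRM cells, taking a floor of 3 reads over the MRM pair. These intervals and the floor allow for counting error alone, as amplified reads without identifiers need not be separate molecules. On the log2(value + 1) scale the LCC minus parental difference in MLM was -7.33 ± 0.91 (SE, 6 against 2 libraries). 

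In HCC1954, ELOVL2 was near the limit of counting in every group. The parental libraries held 0, 0 and 0 in MLM and 0, 2.87 and 2.76 in MRM. The LCC libraries held 3.68, 1.24, 9.15 and 5.06 in MLM and 3.08, 5.47, 2.62 and 2.70 in MRM, for LCC1 libraries 1 and 2 and then LCC2 libraries 1 and 2. These rest on 0, 7, 17 and 17 reads per group for parental MLM, parental MRM, LCC MLM and LCC MRM, and the gene did not reach the mean of 10 that was set for testing.

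**Figure D1:**
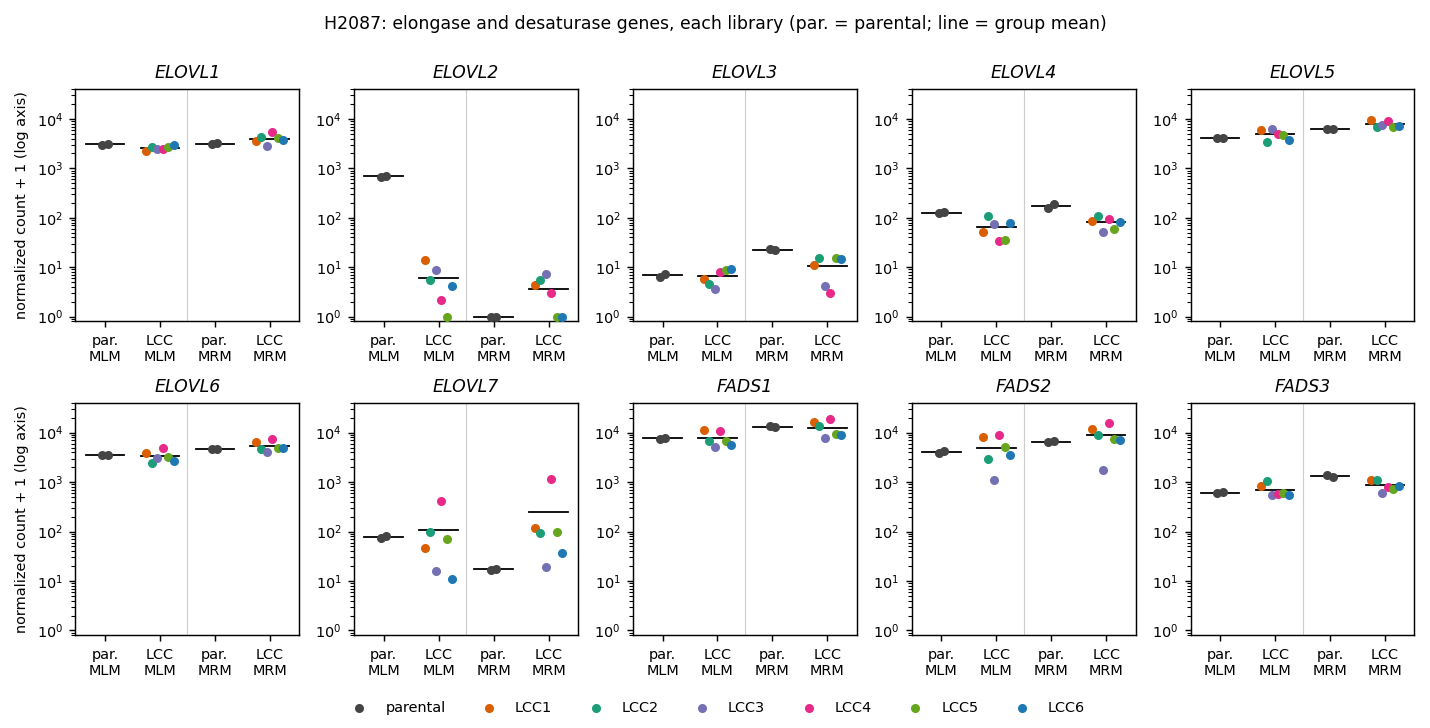
Normalized counts of the 10 genes in each H2087 library on a log axis, by group (parental or LCC) and medium. ELOVL2 stands at 682 and 698 in the parental MLM libraries and at 13.3 or less in all other libraries, and FADS2 and ELOVL7 range widely over the 6 LCC derivatives.

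The genes whose log2 values followed ELOVL2 most closely over the 16 H2087 libraries, among 12535 genes, were CCDC74A (Pearson's r 0.973), GALNT14 (0.950) and GOLGA7 (0.949). GALNT14, which starts mucin-type O-glycosylation, had a mean of 251.6 in parental MLM, 1.21 in LCC MLM, 0 in parental MRM and 0.542 in LCC MRM cells. GOLGA7, a partner of a palmitoyltransferase, had 1107, 615, 535 and 576 in the same order, and CCDC74A had 158, 50.9, 36.3 and 44.0. All 3 were thus high in the same 2 libraries, which carry these correlations. They are a description, and the libraries share their medium and depth.

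The genes near ELOVL2 on chromosome 6 are given as a description. The MLM difference between LCC and parental cells chose ELOVL2, so smaller differences of the genes around it in that contrast test nothing. Among the H2087 genes with enough reads, TMEM14C, TMEM14B, NEDD9 and TMEM170B are its neighbours in order. In MLM the LCC minus parental log2 differences of these 4 were 0.01, -0.23, 0.71 and -1.68, where ELOVL2 had -7.33. Between the media in parental cells, limma called TMEM170B higher in MLM by 1.46, NEDD9 by 0.83 and TMEM14B by 0.50, each on the log2 scale, whereas TMEM14C differed by 0.01 (adjusted p = 0.782). TMEM170B held a mean of 144.1 in parental MLM and 51.7 in parental MRM cells, with 55.5 in LCC MLM and 28.9 in LCC MRM cells. It was therefore highest in the same group as ELOVL2, but the MLM groups lay closer, the LCC range of 16.5 to 137.2 reaching almost to the parental one.

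The other members were compared between LCC and parental cells, which asks how the latency-competent lines differ from the cells they came from. A gene was called at a limma adjusted p under 0.05, with Benjamini-Hochberg adjustment over all genes with a mean of at least 10. In H2087 in MLM, the contrast that chose the members, no member is given a call, and 13.7% of all 12480 genes were called, 4.94% higher and 8.77% lower. ELOVL4, which makes ultra-long chains in retina, brain and skin, was lower in all 6 LCC libraries than in both parental ones. It held 121.8 and 130.1 in parental and, from lowest to highest, 32.7 to 109.6 in LCC cells with a median of 61.9. ELOVL1, which lengthens saturated chains for sphingolipids, ran from 2283 to 2934 in LCC cells (median 2537), under the parental 2992 and 3071. The remaining 6 of these members with enough reads overlapped, with log2 differences from -0.55 ± 1.22 for ELOVL7 to 0.21 for ELOVL5. Here and below, the share of all genes whose groups did not overlap was not counted.

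In MRM, 1 of 9 members passed the test in H2087, ELOVL4, which was lower in LCC cells. Over all 12495 genes 14.6% were called in this comparison, 8.76% higher and 5.83% lower, so the count is near the background. Parental libraries held 156.6 and 186.7 of ELOVL4 and LCC libraries 51.1 to 108.6, with a median of 83.6. The log2 difference was -1.14 ± 0.30 (adjusted p = 0.0385), a level of 0.452 of the parental one. This call was lost without either parental library (adjusted p = 0.206 and 0.254), without LCC1, LCC5 or LCC6 (0.0564, 0.0657 and 0.0589) and without the filter on low values (0.0523). The direction and size were close to those of MLM, and the test of the difference between the media gave 0.02 ± 0.56 (adjusted p = 0.986).

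FADS3, whose known substrates include sphingoid bases, held 1393 and 1271 in parental and 588.5 to 1120 (median 808.2) in LCC libraries in MRM. All LCC libraries lay below both parental ones, but the log2 difference of -0.67 ± 0.23 did not pass (adjusted p = 0.0857), though it did without LCC2 (0.0464). ELOVL5, which elongates the polyunsaturated products of FADS2, ran from 6827 to 9375 (median 7234) in LCC libraries, above the parental 6356 and 6137, by 0.31 ± 0.14 on the log2 scale (adjusted p = 0.179). ELOVL7, another elongase of saturated chains, held 15.8 and 16.5 in parental and 18.6 to 1151 (median 93.0) in LCC libraries. Its groups did not overlap either, yet its difference of 2.51 ± 1.25 did not pass (adjusted p = 0.207), with derivatives far apart. ELOVL3, an elongase best known from skin and brown fat, was scarce, at 22.1 and 21.3 in parental and at most 14.7 in LCC libraries, with a difference of -1.36 ± 0.75 (adjusted p = 0.253). ELOVL1, ELOVL6, FADS1 and FADS2 overlapped between the groups, with log2 differences of 0.30, 0.18, -0.17 and 0.14.

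The 6 H2087 derivatives differed from each other far more than the 2 parental libraries did. FADS2, which takes the first desaturation step on linoleic and alpha-linolenic acid, held 8292, 2902, 1117, 8861, 5093 and 3556 in LCC1 to LCC6 in MLM. In MRM the same lines held 11814, 8854, 1742, 15900, 7596 and 6962, so LCC3 was lowest and LCC4 highest in both media. FADS1, which takes the later desaturation step to arachidonic acid, ran in MLM from 5128 in LCC3 to 11532 in LCC1, with 10823 in LCC4. In MRM it ran from 7745 in LCC3 to 19215 in LCC4. ELOVL7 stood out in LCC4, at 416.6 in MLM and 1151 in MRM, against at most 97.8 and 117.6 in the other derivatives. LCC2 held the most FADS3 in both media, 1055 in MLM and 1120 in MRM. Each derivative gave 1 library per medium, so differences between derivatives have no replicate within a medium.

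In HCC1954, FADS1 and FADS3 rose in LCC cells in both media, FADS2 rose in MLM, and ELOVL5 and ELOVL1 fell in MLM. In MLM 5 of 8 tested members were called, 3 higher and 2 lower, where 36.5% of 15186 genes were called, 17.6% higher and 18.9% lower. In MRM 2 of 8 were called, both higher, where 38.4% of 15432 genes were called, 19.2% higher and 19.3% lower. With library totals in place of the deposited size factors, the median over all genes moved up by 0.11 in MLM and 0.13 in MRM (log2), and the called genes split 3338 higher and 2112 lower in MLM, against 2672 and 2869. In MRM the split became 3804 and 2146, against 2959 and 2973. In H2087 the same change turned 616 and 1095 into 463 and 1589 in MLM, and 1094 and 728 into 832 and 1205 in MRM. Epithelial markers moved with these groups in HCC1954: their summed level was 292310 to 322190 in parental and 116088 to 190555 in LCC libraries, with 7 of 7 detected and none at 0. KRT8 and KRT18 made up most of that sum, KRT19 was higher in every LCC library (717 to 1144 in parental and 2027 to 2227 in LCC cells in MLM), and CLDN4 and ESRP1 overlapped in MLM. In H2087 the summed level was 111784 to 134200 in parental and 134782 to 420375 in LCC libraries. The part of these markers in the results was not tested.

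FADS1 had values of 757.6, 701.5 and 709.3 in the parental libraries in MLM. LCC1 held 2143 and 2157, and LCC2 1958 and 1950. In MRM the parental libraries held 488.1, 498.7 and 516.1, LCC1 1655 and 1170, and LCC2 1427 and 1471. No LCC library came near a parental one in either medium. The rise was 1.50 ± 0.08 in MLM (2.83-fold, adjusted p = 8.95e-05) and 1.50 ± 0.13 in MRM (2.83-fold, adjusted p = 0.000202), on the log2 scale. It was there in each derivative alone: in MLM 1.57 for LCC1 and 1.43 for LCC2, and in MRM 1.47 and 1.53. Without the divergent LCC1 library 2 in MRM the rise was 1.59 (adjusted p = 6.34e-05), and without parental library 3 in MLM it was 1.49 (adjusted p = 0.000422).

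FADS3 was also higher in every LCC library, but by unlike amounts in the derivatives. Parental libraries held 954.5, 921.5 and 1202 in MLM, LCC1 3522 and 3581, and LCC2 1773 and 1721. In MRM the parental libraries held 518.5, 446.1 and 421.5, LCC1 1641 and 1667, and LCC2 696.4 and 648.3. The rise was 1.29 ± 0.31 in MLM (adjusted p = 0.0147) and 1.19 ± 0.38 in MRM (adjusted p = 0.0401). LCC1 alone gave 1.80 and 1.84 in MLM and MRM, and LCC2 alone 0.78 and 0.54. In MLM the call was lost without parental library 1 (adjusted p = 0.0579) or 2 (0.0582). In MRM it was lost in 5 of 7 refits with 1 library left out, those without parental library 1, 2 or 3 (0.0881, 0.114 and 0.125) or LCC1 library 1 or 2 (0.0800 and 0.0607). With each derivative alone all of these differences passed.

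The LCC effect of FADS2 differed between the media by 1.00 ± 0.28, which did not pass in limma (adjusted p = 0.215). FADS2 was called in MLM and not in MRM. In MLM it held 679.9, 682 and 627.2 in parental, 1068 and 1052 in LCC1 and 865.4 and 814.4 in LCC2 libraries, all LCC libraries above all parental ones, a rise of 0.51 ± 0.13 (adjusted p = 0.0177) that was lost without parental library 1 (0.0548) or 2 (0.0522). In MRM the LCC libraries held 630.8, 302.4, 486.1 and 475.9 and the parental ones 671.8, 695.9 and 572.6. These groups overlapped, with a difference of -0.49 ± 0.24 (adjusted p = 0.141), and without LCC1 library 2, the lowest, it was -0.29 (adjusted p = 0.135). LCC2 alone against parental cells in MRM gave -0.42 (adjusted p = 2.32e-05), a fit of 3 against 2 libraries.

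ELOVL5 fell in LCC cells in MLM, from 8913, 8620 and 9818 in parental libraries to 5642, 5711, 5862 and 5987 in LCC libraries. The groups were well apart, and the difference was -0.65 ± 0.08 (adjusted p = 0.00095), or -0.68 in LCC1 and -0.62 in LCC2 alone. In MRM the parental libraries held 7000, 6701 and 6887 and the LCC libraries 5958, 6110, 6237 and 6297, lower again but by -0.16 ± 0.07 (adjusted p = 0.108). Within LCC cells ELOVL5 differed between MLM and MRM by -0.08 (95% interval -0.25 to 0.08). ELOVL1 fell in MLM from 2993, 2869 and 3234 to 2567, 2564, 2246 and 2057, by -0.37 ± 0.11 (adjusted p = 0.031). This call was lost with library totals (0.053) and without any 1 of parental libraries 1, 2 and 3 or the LCC2 libraries 1 and 2. In MRM ELOVL1 overlapped and its difference of -0.31 did not pass (adjusted p = 0.0837), but it did without LCC1 library 2 (-0.42, adjusted p = 0.00284).

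**Figure D2:**
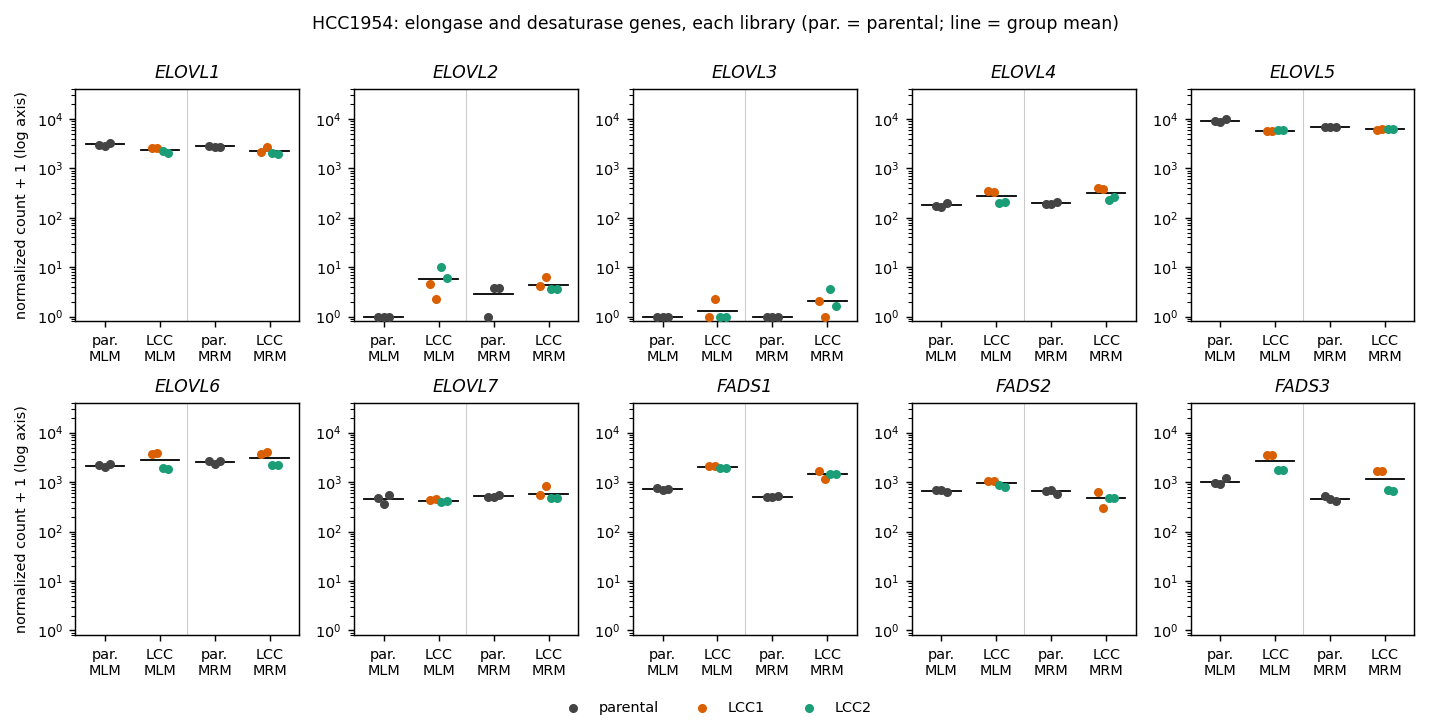
Normalized counts of the 10 genes in each HCC1954 library on a log axis, by group and medium. FADS1 lies at 488.1 to 757.6 in the parental and 1170 to 2157 in the LCC libraries, and ELOVL2 and ELOVL3 lie near 0 throughout.

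ELOVL4 and ELOVL6 followed the derivative. ELOVL4 held 172.2, 161.7 and 202.1 in parental MLM libraries, 343.9 and 336.6 in LCC1 and 202.3 and 204.6 in LCC2. In MRM it held 190.1, 190.5 and 209.7 in parental libraries, 405.8 and 384.4 in LCC1 and 228.6 and 258.2 in LCC2. All LCC libraries lay above the parental ones, yet the differences of 0.56 ± 0.24 (adjusted p = 0.109) and 0.65 ± 0.22 (adjusted p = 0.0534) did not pass. The one in MRM passed with edgeR (0.0445), with library totals (0.0165) and without LCC2 library 1 (0.0239), and the one in MLM with library totals (0.0412). ELOVL6, which lengthens palmitate to stearate, held 2193, 1978 and 2322 in parental MLM libraries, 3710 and 3845 in LCC1 and 1914 and 1862 in LCC2, with the same order in MRM. Its differences of 0.31 and 0.21 did not pass, but LCC1 alone gave 0.81 (adjusted p = 0.00135) in MLM and 0.60 (adjusted p = 0.00409) in MRM, and LCC2 alone -0.19 (0.128) and -0.18 (0.00309). ELOVL7 overlapped in both media, with differences of -0.13 and 0.15, and ELOVL3 was at or near 0, at most 2.62 in any library.

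**Figure D3:**
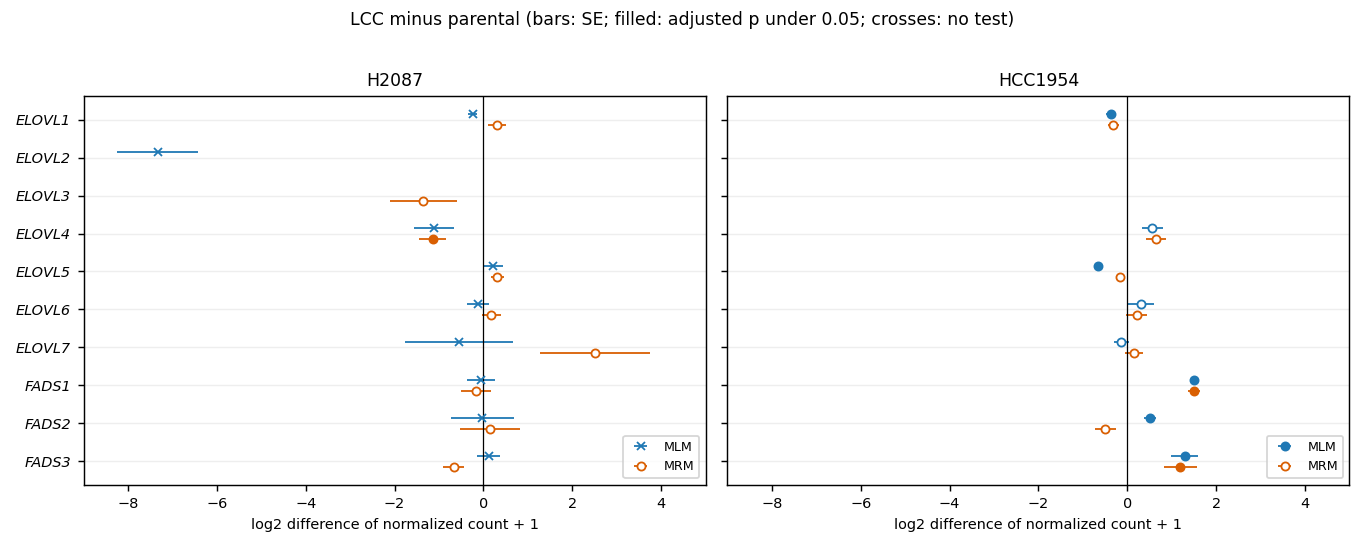
Log2 difference, LCC minus parental, of each tested gene in each line and medium, with bars for the SE. Filled points have an adjusted p under 0.05 and crosses mark the contrast that was not tested. FADS1 is at 1.50 in both HCC1954 media and ELOVL2 at -7.33 in H2087 in MLM.

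The 2 HCC1954 derivatives were compared directly, over both media with the medium as a covariate. LCC2 lay below LCC1 in 4 of 8 members and above it in 0, where 45.8% of 15467 genes were called, 22.4% higher and 23.4% lower. FADS3 was lower at -1.16 ± 0.07 (adjusted p = 6.11e-05), ELOVL6 at -0.89 ± 0.07 (9.28e-05) and ELOVL4 at -0.72 ± 0.08 (0.00047), on the log2 scale. ELOVL1 was lower at -0.27 ± 0.08 (adjusted p = 0.0294), a call lost with library totals (0.233) and without any 1 of LCC1 libraries 1 and 2 in MLM, LCC2 library 2 in MLM or LCC2 libraries 1 and 2 in MRM. FADS1 differed by -0.04 ± 0.11 (95% interval -0.29 to 0.21, adjusted p = 0.789) and FADS2 by -0.10 ± 0.22 (adjusted p = 0.737). Without LCC1 library 2 in MRM both passed, at -0.16 (0.0163) and -0.36 (0.00121). ELOVL5 differed by 0.06 (adjusted p = 0.345), or by 0.20 with library totals (0.0089), which moved the median of all genes by 0.14 and the called genes from 3466 higher and 3616 lower to 4998 and 2449.

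Between the media, parental H2087 cells had lower levels in MLM for most of the family. Of the 9 members tested beside ELOVL2, 7 fell and 1 rose, where 72.6% of 12524 genes were called, 38.2% higher and 34.4% lower. FADS3 fell from 1393 and 1271 in MRM to 594.7 and 629.7 in MLM, a log2 difference of -1.12 ± 0.07 (adjusted p = 5.41e-06). FADS1 fell from 13669 and 12989 to 7490 and 7803, a difference of -0.80 ± 0.05 (adjusted p = 3.87e-06), and FADS2 from 6606 and 6646 to 3912 and 4343, one of -0.68 ± 0.05 (2.29e-05). Further members that fell were ELOVL5 at -0.61 ± 0.04 (1.07e-05), ELOVL6 at -0.38 ± 0.04 (0.000122), ELOVL3 at -1.72 ± 0.35 (0.00296) and ELOVL4 at -0.44 ± 0.13 (0.0195), the last lost without either parental MLM library (0.179 and 0.113). ELOVL7 went the other way, from 15.8 and 16.5 in MRM to 74.9 and 78.7 in MLM, a rise of 2.18 ± 0.21 (adjusted p = 6.18e-05), as did ELOVL2, which is given above without a test. ELOVL1 differed by -0.06 (adjusted p = 0.257), and passed without parental library 1 in MRM (-0.10, adjusted p = 0.0262). The chi-square per degree of freedom between the 2 parental libraries was 2.57 in MLM and 3.72 in MRM, against 6.68 or more between H2087 LCC libraries of 1 medium.

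In H2087 LCC cells, 32.7% of 12466 genes were called in the fit without pairing, 15.9% higher and 16.7% lower. Of 8 tested members, 3 fell in MLM. Their log2 differences were -0.60 ± 0.13 for ELOVL1 (adjusted p = 0.00369), -0.71 ± 0.15 for ELOVL5 (0.0038) and -0.69 ± 0.18 for ELOVL6 (0.0128). ELOVL5 ran from 3402 to 6253 in MLM (median 4831) and from 6827 to 9375 in MRM, without overlap. FADS1 differed by -0.68 ± 0.26 (adjusted p = 0.066), and passed without LCC1 (0.0371) or LCC4 (0.0426) in MLM or LCC3 in MRM (0.0359). FADS2 and FADS3 differed by -0.86 and -0.33 and did not pass, nor did ELOVL7, which rose in parental cells and differed by -0.88 in LCC cells. Each derivative was sampled in both media, and with the derivative as a block 7 of 8 members were called, all lower: FADS1 (adjusted p = 0.000103), FADS2 (0.000669), FADS3 (0.00705) and ELOVL7 (0.0179) joined the other 3. The 32.7% of all genes belongs to the fit without the block, so these 7 calls have no background share beside them. FADS1 and FADS2 were lower in MLM than in MRM in all 6 derivatives.

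In HCC1954, FADS1 was higher in MLM than in MRM in parental and in LCC cells. In parental cells 3 of 8 members rose in MLM and 0 fell, where 46.4% of 14877 genes were called, 25.5% higher and 20.9% lower. FADS3 rose from 518.5, 446.1 and 421.5 in MRM to 954.5, 921.5 and 1202 in MLM, by 1.14 ± 0.13 (adjusted p = 0.000814). FADS1 rose by 0.53 ± 0.07 (adjusted p = 0.00163) and ELOVL5 by 0.41 ± 0.07 (0.00315), and neither overlapped between the media. FADS2 overlapped, with a difference of 0.04 (95% interval -0.19 to 0.27). ELOVL6 was lower in MLM by -0.23 ± 0.08 (adjusted p = 0.0549), and passed with edgeR (0.0384), with library totals (0.0213) and without parental library 3 in MLM (0.00128). Without that library ELOVL7 also passed, at -0.31 (adjusted p = 0.0171), and 5 members were called.

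In HCC1954 LCC cells, 11.9% of 15467 genes were called in the fit without pairing, 6.36% higher and 5.52% lower. Of 8 members, 2 rose in MLM, FADS1 by 0.53 ± 0.12 (adjusted p = 0.0258) and FADS2 by 1.04 ± 0.22 (0.022). FADS2 went from 630.8, 302.4, 486.1 and 475.9 in MRM to 1068, 1052, 865.4 and 814.4 in MLM, without overlap. FADS3 was higher in MLM by 1.24 ± 0.41 and did not pass (adjusted p = 0.0867), but passed with libraries of the same derivative and number as a block (0.00224), which called 3 members. The labels tie these libraries to a derivative and do not say that the number within it is shared between media. Of the 2 calls, FADS1 was lost in 6 of 8 refits with 1 library left out (adjusted p 0.0599 to 0.0757), those without any 1 of the 4 MLM libraries or LCC2 library 1 or 2 in MRM. FADS2 was lost in 5 of 8 (0.0527 to 0.0664), those without LCC1 library 1 or 2 or LCC2 library 1 in MLM, or LCC2 library 1 or 2 in MRM. FADS1 was also lost with library totals (0.0519). LCC1 alone called 0 of 8 members (FADS1 0.63, adjusted p = 0.143, and FADS2 1.28, adjusted p = 0.134), and LCC2 alone called 7. The 11.9% of all genes is from another fit and is no background for these counts or for that of the block. With library totals the genes called higher and lower between media, over all genes, became 3224 and 1677 (from 1988 and 2084) in H2087 LCC cells, 3191 and 3823 (from 3795 and 3114) in HCC1954 parental cells, and 648 and 1199 (from 983 and 854) in HCC1954 LCC cells.

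**Figure D4:**
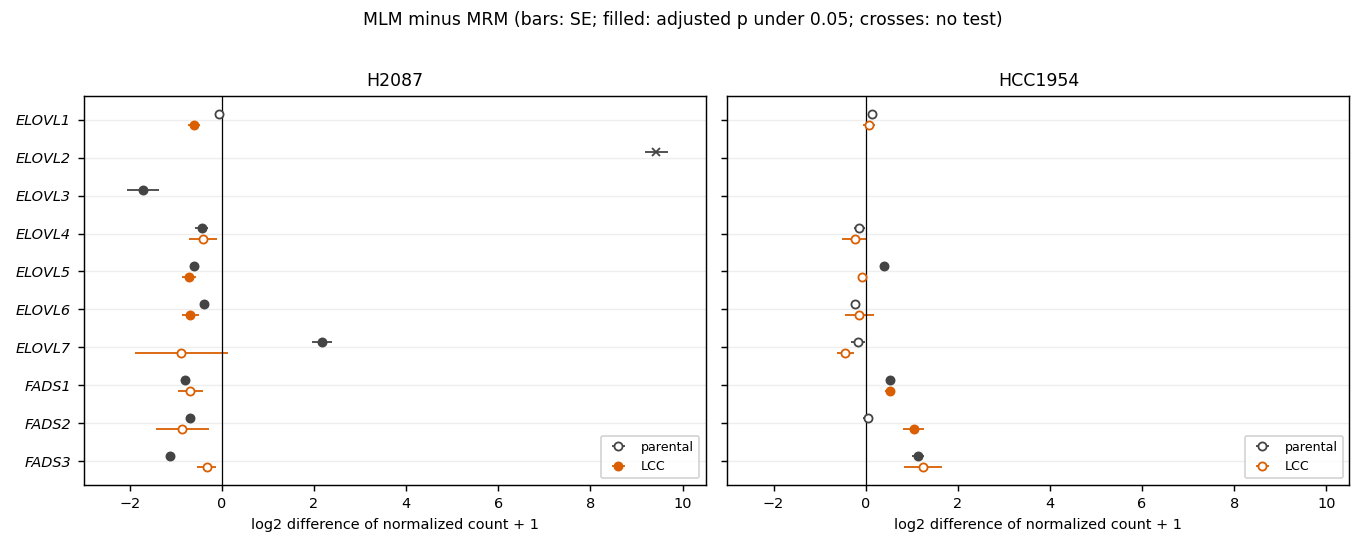
Log2 difference, MLM minus MRM, of each tested gene in parental and LCC cells of each line, with bars for the SE. Filled points have an adjusted p under 0.05 and crosses mark values that were not tested. The fits shown hold no pairing of LCC libraries. FADS1 lies at -0.80 and -0.68 in H2087 and at 0.53 in both HCC1954 cell types.

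Whether the LCC minus parental difference itself changed with the medium was tested in a fit over all 4 groups of a line, without pairing. In H2087 ELOVL2 differed by -8.83 ± 1.33 on the log2 scale, a description since its MLM values chose the members. Of the other 8 tested members, limma called 0 and edgeR 0, with 2 at an unadjusted p under 0.05, where limma called 10.7% of 12535 genes. ELOVL7 and FADS3 had differences of -3.06 and 0.79, which did not pass (adjusted p = 0.324 and 0.188). Both passed with a block (0.00172 and 0.00412) that paired LCC libraries by derivative and parental libraries by number. The labels do not tie parental numbers across the media. ELOVL1 had -0.54 ± 0.24 (adjusted p = 0.163) and passed without LCC3 in MRM (-0.64, adjusted p = 0.0438). In HCC1954 0 of 8 members were called by limma and 0 by edgeR, where limma called 0.156% of 15397 genes. At an unadjusted p under 0.05, 2 members passed, FADS2 at 1.00 ± 0.28 (adjusted p = 0.215) and ELOVL5 at -0.49 ± 0.09 (adjusted p = 0.0795). For FADS1 the rise in LCC cells differed between the media by 0.00 ± 0.15, with a 95% interval of -0.32 to 0.32.

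A set of 6 lists with 90 genes in all give the setting of the family in the pathway. In parental H2087 cells 51 of 74 tested genes of these lists were lower in MLM than in MRM and 9 higher, with a median log2 difference of -0.35 against 0.03 over all genes, of which 34.4% were called lower and 38.2% higher. Of the partners that complete each elongation cycle and of the acyl-CoA synthetases, 12 of 14 fell and 0 rose, and of the regulators of lipid synthesis 14 of 16 fell and 1 rose. SREBF1, which encodes SREBP-1, fell by 0.85 on the log2 scale. INSIG1, which holds SREBP back in the endoplasmic reticulum and is itself a target, fell by 0.98, and SCD, the desaturase that makes oleate, fell by 0.73. FASN, the fatty acid synthase, fell by 0.14. SLC27A1 and SLC27A2, which take up and activate fatty acids, fell, with differences of -2.41 and -1.49, and so did LPCAT3, which puts arachidonate into phospholipids, at -2.00. ACACB, the acetyl-CoA carboxylase of the mitochondrial surface, rose by 1.16, LPCAT1 by 1.00 and CYB5B by 0.52.

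In H2087 LCC cells 32 of 76 tested list genes were lower in MLM and 4 higher, with a median of -0.43 against 0.01 over all genes (16.7% called lower and 15.9% higher). SREBF1 (-1.38), SCD (-1.19), INSIG1 (-0.84) and SLC27A2 (-2.26) fell, while FASN differed by -0.09 (adjusted p = 0.756). Among the genes that rose were CYB5B, by 0.47, RXRA by 0.56 and SCP2 by 0.35. HCC1954 parental cells had the opposite balance, with 32 of 79 list genes higher in MLM and 12 lower, and a median of 0.17 against 0.02 over all genes (25.5% called higher and 20.9% lower). Of de novo synthesis and oleate formation, 7 of 11 genes rose and 0 fell. SCD rose by 1.71, INSIG1 by 1.37, SREBF2, the sterol-responsive sister of SREBF1, by 1.27 and SREBF1 by 0.38, whereas FASN did not pass (0.33, adjusted p = 0.171). PTGS2 (-1.47), LPCAT4 (-0.93) and PPARG (-0.94) fell. In HCC1954 LCC cells 7 of 83 rose and 2 fell, against 6.36% and 5.52% of all genes, with a median of 0.13 against 0.03. Among them were INSIG1 (1.48, adjusted p = 0.0132), SREBF2 (1.39) and ACSS2 (1.21), while ABCD3 fell by 0.60. SCD and FASN were higher in MLM by 1.81 and 0.96 without passing (adjusted p = 0.0623 and 0.0572).

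Between HCC1954 LCC and parental cells, 14 of 82 list genes were higher and 27 lower in LCC cells in MLM, with a median of -0.23 against 0.00 over all genes, of which 17.6% were called higher and 18.9% lower. In MRM 13 of 83 were higher and 19 lower, near the 19.2% and 19.3% of all genes. Library totals raise the share called higher over all genes in both media, as given above. While FADS1 rose by 1.50, in MLM SCD fell (-0.77, adjusted p = 0.0126), as did INSIG1 (-0.81, 0.000842) and SREBF1 (-0.33, 0.028), and INSIG1 fell in MRM (-0.93, 0.0418). A list of users of very long chain fatty acids holds enzymes that act on arachidonic acid beside ceramide synthases and lysophospholipid acyltransferases. In each medium 2 of its 17 tested genes rose and 9 fell, against 18.9% of all genes called lower in MLM and 19.3% in MRM. The genes named from it are those with the largest called change. PTGS1, a cyclooxygenase that turns arachidonic acid into prostaglandin H, rose by 5.14 ± 0.35 in MLM and 4.90 ± 0.26 in MRM, from means of 52.7 and 52.1 to 1709 and 1633. PTGS2, the inducible cyclooxygenase, fell, with differences of -5.05 ± 0.62 and -4.82 ± 0.80. PLA2G4A, the phospholipase that frees arachidonic acid, fell too (-2.69 ± 0.27 and -3.40 ± 0.28), and so did ALOX15, a lipoxygenase (-1.47 and -1.73).

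In H2087 in MLM, the contrast that chose the family, the 76 list genes with enough reads had a median LCC minus parental difference of 0.07 against 0.01 over all genes. In MRM 2 rose and 6 fell of 76, against 8.76% and 5.83% of all genes, with a median of -0.05. LPCAT1, the acyltransferase of lung surfactant lipid, rose by 1.88, and DEGS1, which makes ceramide by desaturation, by 0.57. ACSS2, which makes acetyl-CoA from acetate, fell (-1.19), as did PPARA (-0.86) and LPCAT3 (-0.80). SREBF1, INSIG1, SCD and FASN were not called between H2087 LCC and parental cells in MRM. Between the HCC1954 derivatives 19 of 83 list genes were higher and 19 lower in LCC2, close to the 22.4% and 23.4% of all genes. Of the peroxisomal beta-oxidation genes, which carry the last step of docosahexaenoic acid synthesis, 7 of 10 were higher and 0 lower, with HSD17B4 at 1.88. SLC27A2, ACSL4, an arachidonate-preferring acyl-CoA synthetase, and CYB5B were lower by -1.65, -1.32 and -0.81. The test of the LCC effect between media called 6 list genes higher and 2 lower of 77 in H2087 and 0 of 82 in HCC1954. Over all genes the share called either way was 10.7% in H2087 and 0.156% in HCC1954, so these counts are near the background.

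The desaturases lie in a row with TMEM258 and FEN1 on the FADS1 side and RAB3IL1 and BEST1 beyond FADS3, in the order of the RefSeq table among genes with enough reads. In HCC1954 LCC cells BEST1, a chloride channel gene, was higher by 4.40 ± 0.40 in MLM and 3.93 ± 0.37 in MRM, from means of 10.1 and 3.81 in parental to 246.1 and 71.1 in LCC libraries, and both were called. RAB3IL1 rose by 1.01 ± 0.13 in MLM and not in MRM (0.45, adjusted p = 0.377). FEN1, a flap endonuclease of DNA replication, rose by 0.59 in MRM (adjusted p = 0.044) and did not pass in MLM (0.29, adjusted p = 0.481). TMEM258 differed by 0.48 and 0.32 and did not pass (adjusted p = 0.162 and 0.0598). Genes on either side of FADS1 to FADS3 were thus unlike in how far they moved, and FADS2, between the other two, was not higher in MRM. In H2087 none of FEN1, RAB3IL1, BEST1 and DAGLA was called between LCC and parental cells in MRM.

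**Figure D5:**
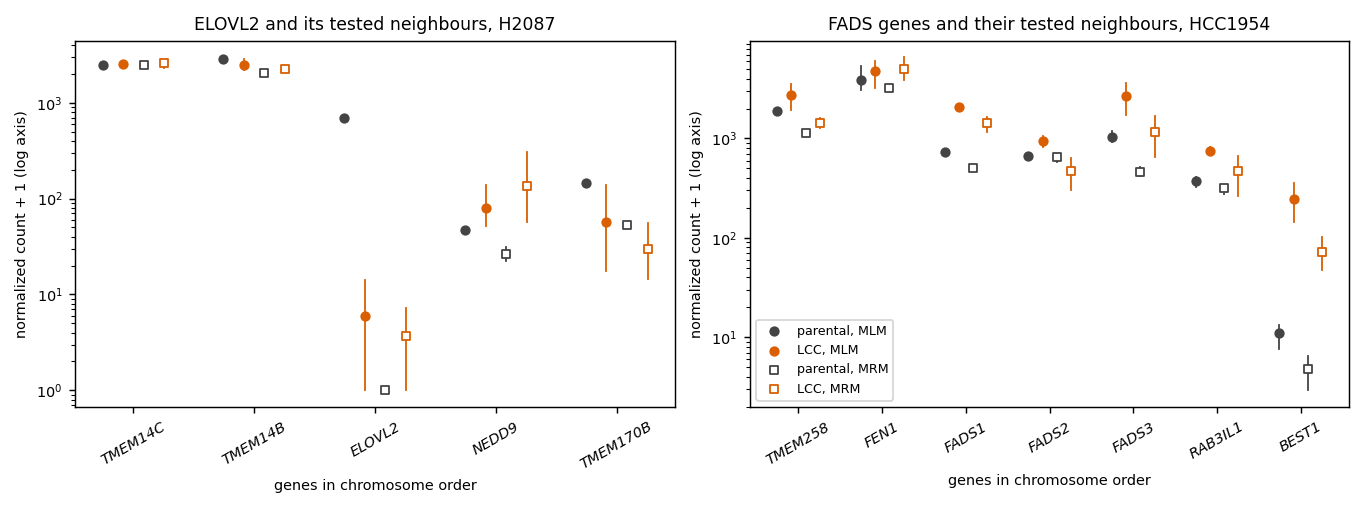
Group means of normalized counts, with bars for the range over libraries, of ELOVL2 and its neighbours in H2087 and of FADS1 to FADS3 and their neighbours in HCC1954, in chromosome order and on a log axis. TMEM14C, beyond TMEM14B from ELOVL2, is level across the groups, whereas TMEM170B is highest in parental MLM cells. BEST1 beyond FADS3 goes from 10.1 in parental to 246.1 in LCC cells in MLM.

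For the desaturases, the genes with the most similar values over libraries differed between the lines. Over the 16 H2087 libraries FADS1 was followed most closely by SPCS2 (Pearson's r 0.955), DHCR7 (0.946), a late enzyme of cholesterol synthesis, and RNF26 (0.942). DHCR7 had means of 7059 in parental MLM, 7116 in LCC MLM, 13934 in parental MRM and 12219 in LCC MRM cells. FADS2 was followed by HPN (0.919), PVRL1 (0.885) and NPAT (0.875), of which HPN, a membrane serine protease, ran from 7.05 to 97.0 over the LCC libraries in MLM. Over the 14 HCC1954 libraries FADS1 was followed by LSM14B (0.991), UCK1 (0.990) and MAPK8IP2 (0.989), whose mean went from 72.3 in parental to 2522 in LCC cells in MLM, and FADS2 by CHD2 (0.942), CARS (0.942) and XPOT (0.938). These correlations are descriptions over libraries that share groups, media and depth.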

How the data were processed

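Total RNA of 30 libraries was analysed; H2087 parental library 3 in MLM has no column, and 12 chromatin samples were not analysed here. The deposited signal values are reads divided by 1 size factor per library, found from the values, since 100% are whole multiples within 0.01. Per the submitters' processing notes, DESeq2 1.8.1, HTSeq 0.6.1p1 and Bowtie2 2.2.4 were used with hg19 and GRCh37. Size factors recomputed over both media of a line matched (largest relative difference 7.63e-12), so media could be tested. Values plus 1 were taken to log2 and tested with limma 3.58.1 in R 4.3.3 (trended, two-sided), with Benjamini-Hochberg adjustment over all genes with a mean of at least 10, within 1 line at a time. Alternatives were edgeR 4.0.16 (quasi-likelihood, TMM) on recovered reads, library totals, a pseudocount of 5, no filter, a replicate block, each derivative alone and each library left out. The members, lists and tests were chosen with earlier results of these data known. Named genes are all members, SREBF1, INSIG1, SCD and FASN, up to 3 list genes a direction with the largest called change and a mean of at least 100, the neighbours, and the 3 most correlated genes. Same-named LCC libraries in the 2 media share a derivative per the labels, and their deviations correlated (Pearson's r 0.416 to 0.762). The main fits ignored this pairing, and the replicate block, run as an alternative, took them as pairs. For the LCC effect between media the block also paired parental libraries by number. In HCC1954, 2 of 4 LCC libraries correlated best with their own number within the derivative, and parental numbers carry no such label.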

Additional observations from a re-analysis of the deposited data

Results flagged for a closer look

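FADS2 in H2087 LCC3 in MRM stood at 1742, with the next derivative at 6962. The gap was 0.626 of the range of the 6 libraries, against a critical value of 0.625. Chance flags about 1 in 20 groups, and 32 groups were looked at.

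For several members the difference had opposite signs in the 2 lines, with groups that did not overlap in either line. How many of all genes would meet this was not counted, so the flag alone sets no member apart. Between media in parental cells FADS1, FADS3 and ELOVL5 passed in both lines, and ELOVL1 in neither (adjusted p = 0.257 in H2087 and 0.140 in HCC1954). With library totals the log2 difference of ELOVL1 in H2087 turned to 0.0060, near no difference. Between LCC and parental cells in MRM ELOVL4 passed in H2087 alone, FADS3 in HCC1954 alone and ELOVL5 in neither (0.179 and 0.108), while in MLM ELOVL4 did not pass in HCC1954 (0.109) and is given no test in H2087. These differences between the lines were not tested, since the lines were normalized separately. As H2087 minus HCC1954 on the log2 scale, the LCC minus parental difference of ELOVL4 was -1.68 in MLM and -1.80 in MRM. In MRM that of FADS3 was -1.87 and that of ELOVL5 was 0.47. For MLM minus MRM in parental cells, FADS3 differed by -2.26 between the lines, FADS1 by -1.33, ELOVL5 by -1.02 and ELOVL1 by -0.19. The LCC effect on ELOVL2 in H2087 differed between MLM and MRM by -8.83, which describes the values that chose the genes.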

How the results depend on the processing

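Library depth, the use of 2 parental H2087 libraries and of 2 HCC1954 derivatives limit these results, and the values of ELOVL3, and of ELOVL2 outside parental H2087 cells in MLM, rest on few reads. A fit that leaves a parental H2087 group with 1 library assumes that it varies like the other groups.

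Over all comparisons, edgeR left 88 member values unchanged, library totals 80, the larger pseudocount 91 and no filter 92. Unchanged means the same direction and call for a tested value. For a value given without a test it means a shift under the gene's largest log2 SD within an H2087 group, whatever the sign. Of the member values with 1 library left out, 733 were unchanged. Among the tested ones 42 turned, 37 lost the call and 12 gained one. With the filter on low values removed, H2087 LCC against parental in MRM called 0 members. With the replicate block on LCC libraries of 1 derivative, 7 members were called between media in H2087 LCC cells. For the H2087 LCC effect between media the block called ELOVL7 and FADS3, with ELOVL2 left as a description. In that fit the block also paired parental libraries by number. Beyond those named in the report the block changed no other LCC call. The cause of the changes given here was not tested. The check of parental numbers gave correlations of 0.0708 in H2087 and 0.0118 to 0.146 in HCC1954, each library correlating best with its own number, a hint from the data and not the design. A replicate block on these numbers called 4 members instead of 3 in HCC1954 parental cells, adding ELOVL6 (adjusted p = 0.0337), and changed no call in H2087 parental cells. In HCC1954 MRM, LCC1 alone called 4 members and LCC2 alone 7, and between media in LCC cells LCC1 alone called 0, LCC2 alone 7 and library totals 1. The percentages of all genes given in the report belong to the main fits, and are no background for these counts or those of the block. LCC2 alone turned the direction of ELOVL6 to -0.19 in MLM and -0.18 in MRM, and of ELOVL7 to -0.11 in MRM. Library totals turned the log2 difference of ELOVL1 between media to 0.0060 in H2087 parental cells and to -0.0038 in HCC1954 LCC cells. They turned that of FADS2 between media to -0.029 in HCC1954 parental cells, and those of FADS1 and FADS2 to 0.10 and 0.044 in LCC2 minus LCC1. For the HCC1954 LCC effect between media FADS1 became -0.0047 with edgeR and -0.011 with library totals. The fitted ELOVL2 differences that involve the 0 reads of parental MRM cells follow the pseudocount and are no bounds.

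With 1 library left out at a time (98 refits over all comparisons), the number of members called in HCC1954 LCC against parental cells ran from 2 to 5 in MLM and 1 to 3 in MRM. Between media it ran from 3 to 4 in H2087 LCC, 3 to 5 in HCC1954 parental and 0 to 2 in HCC1954 LCC cells. It ran from 0 to 0 for the HCC1954 LCC effect between media, and from 3 to 6 for LCC2 minus LCC1. No count is given for H2087 contrasts with parental cells. Their refits can leave 1 parental library and, with MLM, hold the ELOVL2 values that chose the members. Members whose direction turned in some refit ranged as follows. In H2087 in MLM, described without a test, LCC minus parental gave -0.18 to 0.059 for FADS1. For FADS2 and FADS3 that contrast gave -0.26 to 0.34 and -0.016 to 0.18. LCC minus parental gave -0.081 to 0.56 for FADS2 in H2087 MRM, and for ELOVL7 in HCC1954 -0.31 to 0.011 in MLM and -0.035 to 0.24 in MRM. Between media, HCC1954 parental cells gave -0.31 to 0.011 for ELOVL7 and -0.045 to 0.10 for FADS2, and HCC1954 LCC cells -0.31 to 0.035 for ELOVL6. The H2087 LCC effect between media gave -0.16 to 0.18 for ELOVL4, -0.0075 to 0.26 for FADS1 and -0.59 to 0.20 for FADS2. The HCC1954 one gave -0.11 to 0.048 for ELOVL1, -0.24 to 0.038 for ELOVL4, -0.081 to 0.27 for ELOVL6, -0.091 to 0.076 for FADS1 and -0.14 to 0.32 for FADS3. LCC2 minus LCC1 gave -0.16 to 0.041 for FADS1 and -0.36 to 0.065 for FADS2.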
